A study of Mus musculus with 8 samples.

Results

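The genes described here encode the subunits of heterotrimeric G proteins and the regulators of G protein signalling (RGS proteins). They were taken as the protein-coding genes whose symbols name an alpha subunit (Gna), beta subunits 1 to 5 (Gnb), a gamma subunit (Gng) or a numbered RGS gene (Rgs), and 46 of the 14353 genes in the deposited table met this rule, with 12 alpha, 5 beta, 11 gamma and 18 RGS genes. The RGS genes include Rgs7bp, which encodes a protein that binds RGS proteins of the R7 family and is not itself an RGS protein. RNA came from the ventral pallidum (VP) of adult mice made by crossing vGluT2-Cre with RiboTag mice, labelled as homozygous for VGluT2-Cre and heterozygous for Rpl22, with no treatment. In these animals Cre, driven by the vGluT2 gene, places an HA tag on the ribosomal protein RPL22, so that a pulldown of the tag collects ribosome-bound mRNA of vGluT2-expressing cells (the TRAP fraction), which was compared with mRNA of the whole lysate (the INPUT fraction). Tissue was pooled, and each of 4 pools, VP1.6 and then VP2.2, VP2.6 and VP2.11, gave 1 TRAP and 1 INPUT library, so n = 4 libraries per fraction from 38 mice, 15 male and 23 female. Mice were 9 to 12 weeks old in VP1.6 and 10 to 16 weeks old in the other pools. The methods call the second sequenced fraction unbound, whereas the labels call it Input, and the punches could include neighbouring striatal tissue.

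G protein-coupled receptors signal by loading the alpha subunit with GTP, after which alpha and the beta-gamma pair separate and act on enzymes and channels. RGS proteins end the signal by speeding GTP hydrolysis on alpha. In the striatum, which sends dense projections to the VP, some of the dopamine and adenosine receptors work through Golf. The alpha subunit of Golf is encoded by Gnal and its gamma subunit by Gng7. Rgs9 encodes a striatal RGS protein that acts with the beta subunit encoded by Gnb5. Rgs4 encodes an abundant neuronal RGS protein acting on Gi/o and Gq.

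Libraries of each fraction were alike, with correlations between 0.939 and 0.976 for a TRAP library against the mean of the other TRAP libraries and between 0.974 and 0.990 for INPUT, across genes. Whole-read steps in the TRAP minus INPUT difference of low genes put VP2.2 at 12.3 M reads for TRAP against 37.1 M for INPUT. They put VP2.6 at 12.4 M against 24.7 M. Such steps were looked for only in differences within a pool, so whether single-library values hold an adjustment by pool was not tested. Depth in VP1.6 and VP2.11 is unknown. Slc17a6, which encodes vGluT2, was higher in TRAP, with a log2 fold change of 2.55. Of 10 markers of striatal medium spiny neurons, 9 were lower in TRAP (8 with the pool as a block), with a median log2 fold change of -1.41, but none was absent, and their summed level ran from 699 to 1150 CPM (read counts scaled by effective library size) in TRAP against 1670 to 2438 CPM in INPUT. In the fit without the block, markers were lower in TRAP for 4 of 5 genes of astrocytes (summed level 150 to 253 against 343 to 502 CPM), 4 of 5 of oligodendrocytes (900 to 1631 against 3506 to 3807 CPM) and 5 of 5 of microglia (22.7 to 31.5 against 79.8 to 126 CPM), where 1 marker, Tmem119, was at or under 1 CPM in every TRAP library. Among the other lists, 5 of 5 pan-neuronal markers and 1 of 4 endothelial or pericyte markers (Flt1) were higher in TRAP, 1 of 3 GABA markers (Slc32a1) was lower, and of 3 cholinergic markers Chat was higher and Slc18a3 lower. With the block the calls for Csf1r (microglia), Rbfox3 (neurons), Chat and Mag, an oligodendrocyte marker that was higher in TRAP, were lost.

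The gamma subunits held the largest differences of the 46 genes, so their coding sequences are shown before the values. They are short proteins that carry a lipid at their end, by which the beta-gamma pair sits in the membrane. The sequences below are those of annotated transcripts of GENCODE release M21 (GRCm38), 5′ to 3′ on the coding strand, with the last 4 codons before the stop, which encode the end that receives the lipid, in capitals. The genes lie at chr10:80948624-81014945 on the minus strand (Gng7), chr6:4003904-4008445 plus (Gng11), chr3:146499807-146505572 plus (Gng5), chr14:19872559-19977627 minus (Gng2) and chr13:13784059-13827896 plus (Gng4). Gng7, Gng11 and Gng5 are shown because their mRNAs were low in TRAP, and Gng2 and Gng4 because their mRNAs, of like coding length, did not pass the test.
Gng7: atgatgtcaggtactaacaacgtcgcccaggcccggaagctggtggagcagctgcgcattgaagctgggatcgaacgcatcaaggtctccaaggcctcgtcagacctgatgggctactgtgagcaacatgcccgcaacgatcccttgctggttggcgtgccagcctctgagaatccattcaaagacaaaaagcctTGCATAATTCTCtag
Gng11: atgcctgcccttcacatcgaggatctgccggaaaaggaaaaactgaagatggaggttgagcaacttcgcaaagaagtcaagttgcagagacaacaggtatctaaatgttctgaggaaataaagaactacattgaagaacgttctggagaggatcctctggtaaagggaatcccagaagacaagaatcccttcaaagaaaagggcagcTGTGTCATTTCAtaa
Gng5: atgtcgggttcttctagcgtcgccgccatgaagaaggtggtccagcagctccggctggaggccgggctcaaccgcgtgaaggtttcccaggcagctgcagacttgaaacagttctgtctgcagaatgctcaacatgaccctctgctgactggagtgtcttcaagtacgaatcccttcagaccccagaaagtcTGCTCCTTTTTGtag
Gng2: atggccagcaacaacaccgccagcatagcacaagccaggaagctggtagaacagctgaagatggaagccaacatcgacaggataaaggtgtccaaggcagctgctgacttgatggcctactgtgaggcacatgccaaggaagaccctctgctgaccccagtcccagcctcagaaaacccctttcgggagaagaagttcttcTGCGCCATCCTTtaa
Gng4: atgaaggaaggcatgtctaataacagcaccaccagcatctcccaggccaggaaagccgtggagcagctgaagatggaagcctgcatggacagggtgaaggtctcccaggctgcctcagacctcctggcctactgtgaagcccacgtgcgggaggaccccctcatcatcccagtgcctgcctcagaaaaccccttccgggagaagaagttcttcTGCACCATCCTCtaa

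With the stop codon these 5 coding sequences are 207 to 228 bases long. By aligned bases, Gng2 (63.4% identical to Gng7), Gng4 (62.7%) and Gng5 (60.5%) are about as close to Gng7 as one another, and Gng11 is less close (51.4%). Gng12 is the closest of the 10 (68.5%). Genes lower in TRAP and genes that did not pass the test, as given next, are found among both the closer and the more distant ones.

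Of the 11 gamma genes, 7 were lower in TRAP by limma at an adjusted p under 0.05, both without a pool term and with the pool as a block, and 0 were higher. Over all 14249 genes tested, lower calls were 24.8% in the fit that left out the pool and 16.8% in the blocked fit, and the median log2 fold change was -1.41 for the gamma genes against -0.05 for all genes. Fold changes are on the log2 CPM scale, and a bulk library cannot tell fewer cells of a type from less RNA per cell. Without the block, the p-values measure the spread between libraries of the same fraction, each from a separate pool of mice. Each pool gave 1 TRAP and 1 INPUT library, a pairing that only the blocked fit takes into account. There the p-values measure the spread of the differences within pools.

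Gng7 was measured at 78.3, 103, 68.3 and 47.8 CPM in TRAP of VP1.6, of VP2.2, of VP2.6 and of VP2.11, and at 588, 1042, 707 and 375 CPM in the INPUT libraries of the same pools. Every TRAP library was thus below every INPUT library, as held for 24.4% of all genes tested, and VP2.2 was the highest and VP2.11 the lowest pool in both fractions. Gng7 fell 8.85-fold (log2 fold change -3.15 ± 0.31 SE, adjusted p = 8.4e-05, and 2.2e-07 with the block), and the difference within pools ran only from -3.37 to -2.91.

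Gng11 encodes a gamma subunit found in many tissues outside neurons. It stood at 4.18, 2.35, 3.76 and 7.46 CPM in TRAP and at 47.2, 46.4, 34.2 and 28.2 CPM in INPUT, in the same order of pools. It fell 9.36-fold (log2 fold change -3.23 ± 0.32 SE, adjusted p = 8.9e-05, and 2.0e-05 with the block), with the smallest difference in VP2.11 (-1.92) and the largest in VP2.2 (-4.30).

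Gng5, another widely expressed gamma subunit, was at 6.65, 3.48, 2.84 and 3.32 CPM in TRAP and 36.3, 42.7, 33.0 and 25.8 CPM in INPUT. The fractions did not overlap, and Gng5 fell 8.82-fold (log2 fold change -3.14 ± 0.27 SE, adjusted p = 6.0e-05, and 6.4e-06 with the block). Gng10 was low in both fractions, at 1.72, 0.43, 1.23 and 0.83 CPM in TRAP and 6.54, 7.99, 5.75 and 5.06 CPM in INPUT. It fell 6.70-fold (adjusted p = 5.6e-04, and 1.2e-03 with the block), with a log2 fold change of -2.74 that became -1.86 on the log2(CPM + 1) scale, but 72.0% of its annotated exon bases are shared with another gene on the same strand, so reads could not be assigned to it with certainty.

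The other gamma genes that fell were Gng12 (3.60-fold lower, 8.66 ± 3.37 against 29.8 ± 4.77 CPM, SD), Gngt2 (2.66-fold lower) and Gng8 (2.37-fold lower). Gngt2, which encodes the cone transducin gamma subunit, and Gng8 were both under 10 CPM in every library. Gng8 was higher in TRAP in VP2.11, and its call was lost without VP1.6, VP2.2 or VP2.6. The call for Gngt2 was lost without VP1.6, and with the block also without VP2.11.

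**Figure D1:**
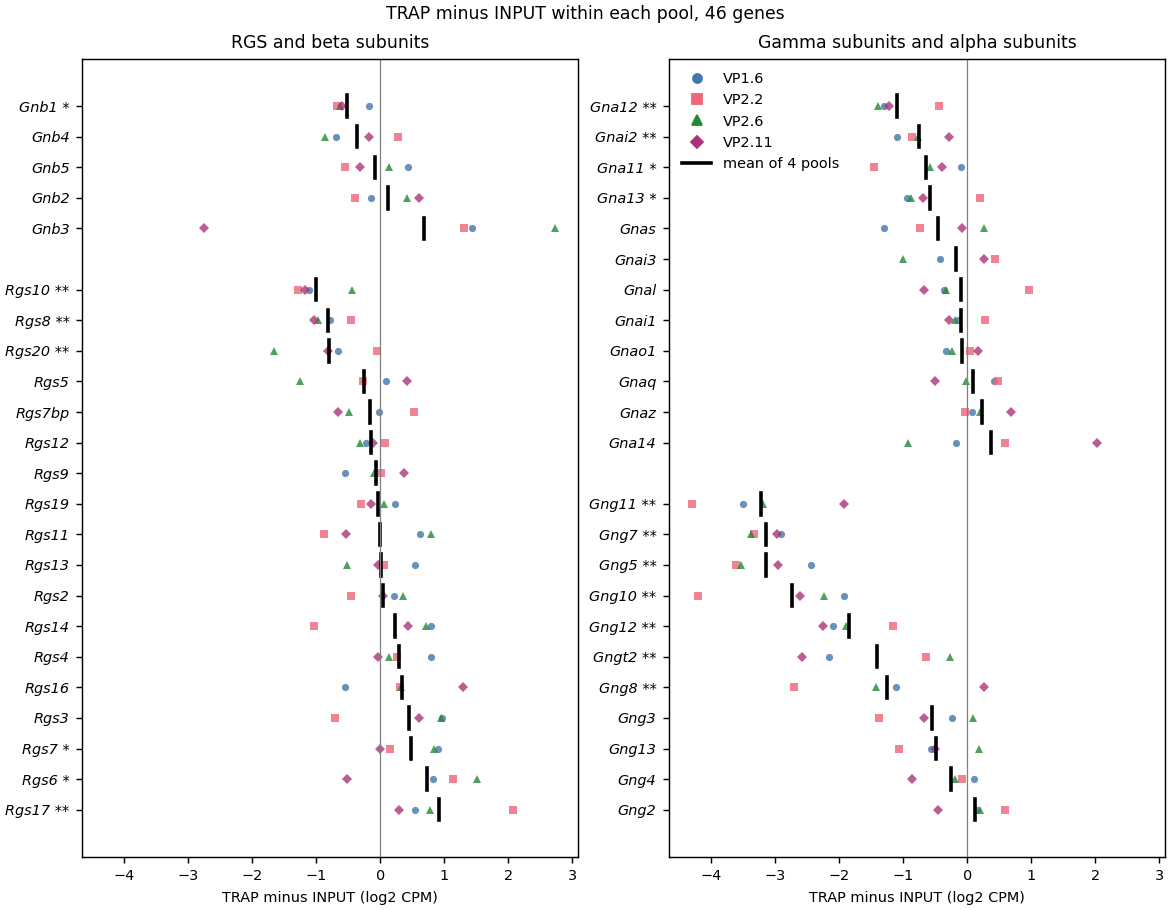
TRAP minus INPUT in log2 CPM (horizontal axis) within each pool for the 46 genes, with beta subunits and RGS genes on the left and alpha and gamma subunits on the right. Each symbol is 1 pool and the black bar is the mean of 4 pools, and ** marks genes past an adjusted p of 0.05 with and without the pool as a block, * those past it only without. The bars of Gng11, Gng7 and Gng5 lie near -3, while most alpha, beta and RGS genes lie within 1 of zero.

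The 4 gamma genes that did not pass the test encode neuronal gamma subunits for the most part. Gng3, which encodes a brain gamma subunit, had the highest level per kb of exon of the gamma genes in both fractions, 410 ± 64.3 CPM per kb in TRAP and 618 ± 202 in INPUT (SD). It was measured at 716, 573, 803 and 605 CPM in TRAP and 843, 1495, 758 and 962 CPM in INPUT, so the fractions overlapped and the high INPUT value was that of VP2.2. The log2 fold change of Gng3 was -0.55 (adjusted p = 0.056, and 0.13 with the block), and 24.2% of its exon bases overlap a gene on the other strand. Without the block it passed after quantile scaling (adjusted p = 0.00094) and without VP2.6 (0.045).

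Gng2, another brain gamma subunit, stood at 194 ± 26.2 CPM in TRAP and 179 ± 28.9 in INPUT, with a log2 fold change of 0.12 (adjusted p = 0.54, and 0.71 with the block). Gng4 (log2 fold change -0.25) and Gng13 (-0.49), which encodes a gamma subunit known from taste and retinal cells, also did not pass. Of Gng13, 51.6% of exon bases overlap a gene on the other strand, and of Gng2 20.4%, and whether counting used strand is not given in the sources used here.

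**Figure D2:**
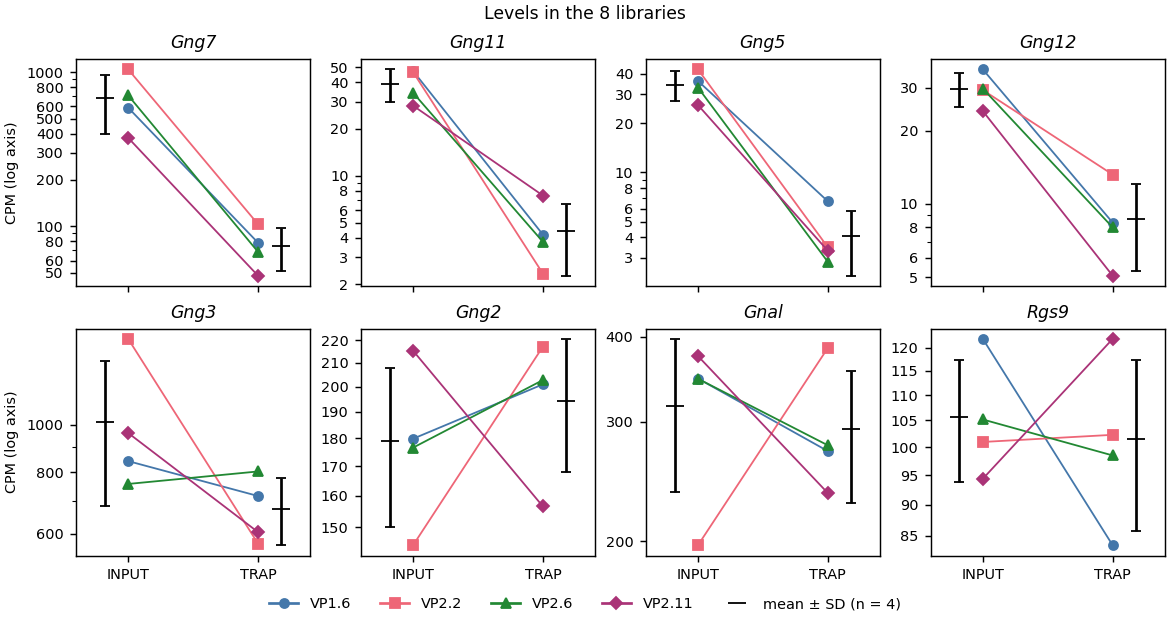
CPM on log axes in INPUT and TRAP for 6 gamma genes, Gnal and Rgs9, with a line for each pool and the mean ± SD of 4 libraries beside each fraction. The lines of Gng7, Gng11, Gng5 and Gng12 fall in all 4 pools, whereas those of Gng2, Gnal and Rgs9 cross, and Gnal in INPUT of VP2.2 lies apart from the other pools.

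Gamma subunits have short coding sequences, 201 to 249 bases as the longest annotated for each gene without the stop codon, and coding length moved with the difference between fractions over all genes. Across 12737 genes Spearman's rho between coding length and log2 fold change was 0.483, a description over genes that share libraries. For the 238 other genes of up to 300 coding bases, a set chosen after the values were seen, the median log2 fold change was -1.23, the middle of the distribution ran from -1.71 to -0.75 (quartiles), and 81.9% were lower (72.3% with the block). Of the 12488 genes with longer coding sequences, 21% were lower and the median was 0.04.

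Within the 249 short genes, gamma genes included, Gng11, Gng7 and Gng5 ranked 17th, 18th and 19th from the lowest log2 fold change and Gng10 25th. Gng2 ranked 239th, Gng4 229th, Gng13 212th and Gng3 203rd, close to the upper end of the short genes. The share of 63.6% of gamma genes that were lower was thus below the 81.9% of the other short genes. Gng12, Gngt2 and Gng8 ranked 56th, 101st and 124th, between these groups. Once the trend on coding length was removed, with the pool as a block, Gng7 (log2 fold change -1.89), Gng11 (-2.01), Gng5 (-1.87) and Gng10 (-1.48) still passed as lower, Gng12, Gngt2 and Gng8 no longer did, and Gng2 (1.36), Gng4 (0.94) and Gng3 (0.65) passed as higher. The part of coding length in the gamma result was not otherwise tested, nor was that of the striatal and glial markers given above.

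**Figure D3:**
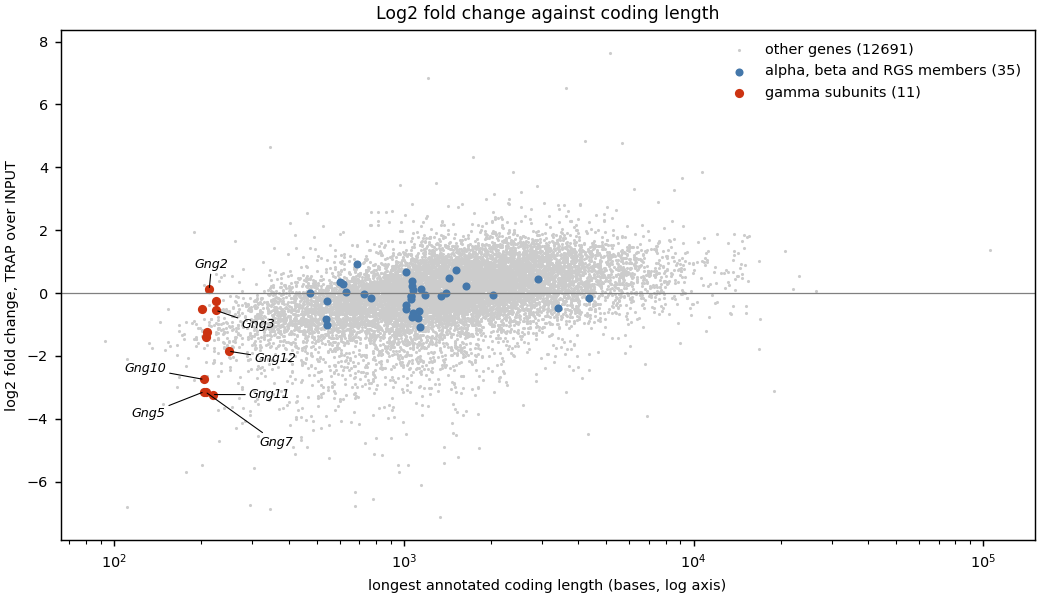
Log2 fold change of TRAP over INPUT against the longest annotated coding length (bases, log axis) for the 12737 genes with both, with gamma genes in red and alpha, beta and RGS genes in blue. The gamma genes stand at the left edge and spread from -3.23 to 0.12, over much of the range of the other short genes.

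The make-up of the gamma pool, taken as each gene's percent of the summed CPM per kb of the 11 genes, differed between fractions. Gng3 made up 76.6% to 83.2% in the TRAP libraries and 59.2% to 71.8% in the INPUT libraries. Gng7 made up 3.85%, 5.99%, 3.07% and 2.82% in TRAP, in the same order of pools, and 18.9%, 20.7%, 24.0% and 12.1% in INPUT. The share of Gng2 was 8.80% ± 1.41 in TRAP and 4.66% ± 1.53 in INPUT (SD, n = 4). Shares within a library depend on each other, so those of Gng3 and Gng2 can be higher in TRAP without a rise in CPM. Their log2 fold changes in CPM were -0.55 and 0.12, and neither passed the test.

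A ratio of genes within a library does not depend on how libraries were scaled. The log2 level of Gng7 minus that of Gng3 was -3.19, -2.47, -3.56 and -3.66 in TRAP and -0.52, -0.52, -0.10 and -1.36 in INPUT. The ratio was 6.04-fold lower in TRAP (exact two-sided permutation test of 4 against 4 libraries, p = 0.029, the smallest that design can give, and 0.086 adjusted over the 3 ratios examined). With 4 pools the exact sign-flip test cannot go below 0.125, the value it gave.

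**Figure D4:**
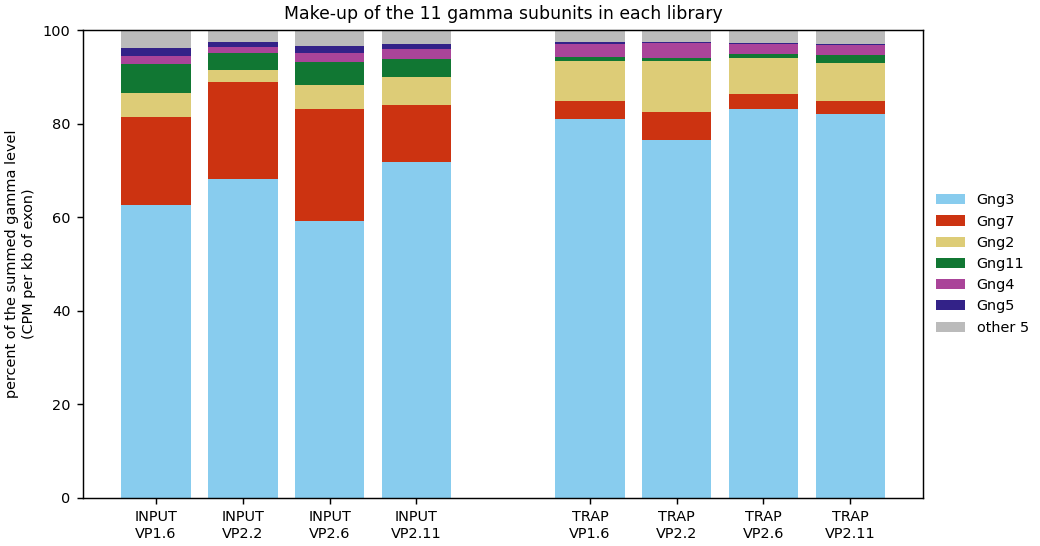
Percent of the summed gamma level (CPM per kb of exon) held by each gene in each of the 8 libraries, stacked to 100. Gng3 (light blue) is the largest part in each library, and the red part of Gng7 is between 12.1% and 24.0% in INPUT and between 2.82% and 5.99% in TRAP.

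Among the 12 alpha genes, the test without the block called 4 lower in TRAP (33.3%, against 24.8% of all genes) and 2 with it (16.7%, against 16.8%), and 0 were higher, so their share was near that of all genes. The median log2 fold change was -0.14. The 2 that fell in both fits were Gna12 and Gnai2.

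Gna12 encodes the alpha subunit of G12. Its level was 16.9, 24.7, 15.0 and 14.1 CPM in TRAP and 41.6, 33.7, 39.5 and 32.9 CPM in INPUT, without overlap. Gna12 fell 2.13-fold (log2 fold change -1.09 ± 0.19 SE, adjusted p = 0.0012, and 0.0044 with the block), and 13.3% of its exon bases overlap a gene on the other strand. Gna13, of the same family, had a log2 fold change of -0.58 that passed unblocked (adjusted p = 0.026) but not in the blocked fit (0.094).

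Gnai2, which encodes an inhibitory alpha subunit common in glia and immune cells as well as neurons, was at 44.5, 53.1, 49.5 and 58.5 CPM in TRAP and 95.0, 96.0, 84.1 and 71.0 CPM in INPUT. It fell 1.68-fold (log2 fold change -0.75 ± 0.14 SE, adjusted p = 0.0020, and 0.018 with the block), and with the block the call was lost without VP1.6 or VP2.6. The other inhibitory members lay close to zero, with log2 fold changes of -0.18 for Gnai3, -0.09 for Gnai1, -0.09 for Gnao1, the main Go subunit of neurons, and 0.23 for Gnaz. None of these 4 passed the test in either fit.

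Gnal stood at 272, 385, 277 and 236 CPM in TRAP and at 347, 197, 347 and 375 CPM in INPUT. TRAP was lower in 3 pools and higher in VP2.2, where the INPUT value was far below those of the other pools. The log2 fold change was -0.10 ± 0.22 SE (adjusted p = 0.74, and 0.81 with the block). Without VP2.2 it was -0.45, which passed without the block (adjusted p = 0.0088) but not with it (0.077), and after removal of a trend on exon length it was -0.58 (0.041, with the block).

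Gnas, the Gs alpha subunit, had deposited values of 5.45, 6.58, 9.89 and 8.34 CPM in TRAP and 13.4, 10.97, 8.23 and 8.82 CPM in INPUT, and the fractions overlapped (log2 fold change -0.46, adjusted p = 0.13, and 0.31 with the block). The Gnas locus holds overlapping transcripts on both strands, with 22.0% of its exon bases shared with 2 genes on the other strand. Reads that could not be assigned to a gene were not counted, so its level is uncertain and may be too low. With the block it passed once the trend on exon length (-0.95, adjusted p = 0.041) or on coding length (-0.92, 0.044) was removed. The log2 level of Gnal minus that of Gnas was 5.28 ± 0.55 in TRAP and 4.92 ± 0.60 in INPUT (SD, n = 4), a difference of 0.36 (exact permutation p = 0.40, and 0.40 adjusted over the 3 ratios). This ratio rests on the uncertain Gnas level, so its size does not show by how much Gnal exceeds Gnas in the tissue.

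Per kb of exon, Gnaq, the Gq alpha subunit that activates phospholipase C beta, was the highest alpha gene in both fractions, with 78.6 ± 11.9 CPM per kb in TRAP and 73.7 ± 12.3 in INPUT. Its level was 555, 529, 472 and 388 CPM in TRAP and 413, 380, 477 and 553 CPM in INPUT, with no call (log2 fold change 0.09, adjusted p = 0.66). In TRAP it was followed by Gnai1 (32.2 ± 2.65 CPM per kb), Gnao1 (30.5 ± 2.55) and Gnal (26.2 ± 5.78), and each of these 3 lay within 1 SD of the next in that order. Gna11, which encodes the other Gq family subunit of wide expression, was 1.55-fold lower, which passed unblocked (adjusted p = 0.021) but not in the blocked fit (0.057). Gna14 was near 1 CPM and over it in 3 libraries (log2 fold change 0.38, adjusted p = 0.57).

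Gnb1 supplied most of the beta mRNA, 88.4% ± 1.03 of the summed CPM per kb of the 5 beta genes in TRAP and 91.5% ± 0.57 in INPUT. It was at 3144, 2861, 2683 and 2702 CPM in TRAP and at 3566, 4548, 4142 and 4096 CPM in INPUT, without overlap but with the smallest difference in VP1.6 (-0.18). The log2 fold change of -0.52 ± 0.16 SE passed without the block (adjusted p = 0.021) and not with it (0.18), so 1 of 5 beta genes (20.0%, against 24.8% of all genes) was lower without the block and 0 with it (against 16.8%). Gnb5, the partner of R7 family RGS proteins, was at 170 ± 24.8 CPM in TRAP and 180 ± 30.9 CPM in INPUT (log2 fold change -0.08). Gnb2 (0.12) and Gnb4 (-0.36) did not pass either. Gnb3, the beta subunit of cone photoreceptors, was low and uneven, with 3.23, 3.18, 5.63 and 0.59 CPM in TRAP and 1.20, 1.29, 0.85 and 4.00 CPM in INPUT, so that VP2.11 went against the other pools.

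The 18 RGS genes divided in direction. Without the block 3 were lower (16.7%, against 24.8% of all genes) and 3 higher in TRAP, where 23.2% of all genes were higher. With the block 3 were lower and 1 higher, where 15.4% of all genes were higher, and the median log2 fold change was 0.01. The genes that fell in both fits were Rgs10, Rgs8 and Rgs20, and Rgs17 rose.

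Rgs17, an RZ family member that acts on Gi, Go and Gz, was measured at 295, 391, 315 and 272 CPM in TRAP and 202, 92.9, 185 and 221 CPM in INPUT. All 4 TRAP libraries were above all INPUT libraries, and VP2.2 had both the highest TRAP and the lowest INPUT value. Rgs17 rose 1.89-fold (log2 fold change 0.92 ± 0.25 SE, adjusted p = 0.013, and 0.018 with the block). Without VP2.2 the log2 fold change was 0.54, and without VP2.6 the call was lost in the fit without the block (adjusted p = 0.052). The call was also lost once a trend on exon length was removed (0.56, adjusted p = 0.064).

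Rgs10, a small RGS protein known from microglia as well as neurons, was at 46.8, 49.2, 59.6 and 39.4 CPM in TRAP and 102, 119, 81.0 and 89.3 CPM in INPUT. It fell 2.01-fold (log2 fold change -1.01 ± 0.17 SE, adjusted p = 9.1e-04, and 0.0038 with the block). Rgs8, an R4 family member, was at 64.0, 76.1, 59.4 and 49.9 CPM in TRAP and 110, 104, 117 and 103 CPM in INPUT. It fell 1.76-fold (log2 fold change -0.81 ± 0.14 SE, adjusted p = 0.0013, and 0.0099 with the block), and with the block the call was lost without VP2.6. In neither gene did the fractions overlap, and both calls were lost once the trend on coding length was removed (log2 fold changes of -0.43 for Rgs10 and -0.23 for Rgs8).

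Rgs20, of the RZ family like Rgs17, was at 30.6, 38.9, 19.3 and 24.9 CPM in TRAP and 48.5, 40.3, 61.0 and 43.7 CPM in INPUT, so that in VP2.2 the fractions nearly met. It fell 1.74-fold (adjusted p = 0.013, and 0.032 with the block), and its call was lost without VP1.6 or VP2.6, and with the block also without VP2.11. Of this family, then, 1 member rose, 1 fell and Rgs19 did not pass (log2 fold change -0.04).

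Rgs4 was the highest RGS gene per kb of exon, with 262 ± 36.9 CPM per kb in TRAP and 214 ± 23.8 in INPUT, and made up 51.9% ± 3.10 of the summed level of the 18 genes in TRAP and 44.9% ± 3.08 in INPUT. It was measured at 981, 778, 769 and 724 CPM in TRAP and 568, 646, 697 and 739 CPM in INPUT. The fractions overlapped in VP2.11 alone, and the log2 fold change of 0.29 ± 0.15 SE did not pass (adjusted p = 0.13, and 0.37 with the block), though it did with array weights (0.045) and with the coding length trend removed (0.011). Rgs2, which acts on Gq, was the next per kb in both fractions (68.4 ± 6.59 and 66.9 ± 10.2 CPM per kb), with a log2 fold change of 0.04. Rgs17 came next in TRAP (38.4 ± 6.19), and in INPUT Rgs10 (57.2 ± 9.77), within 1 SD of Rgs2.

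In the R7 family, whose members pair with Gnb5, Rgs9 was at 83.5, 102, 98.5 and 122 CPM in TRAP and 122, 101, 105 and 94.4 CPM in INPUT. The fractions overlapped fully, with a log2 fold change of -0.06 ± 0.15 SE (adjusted p = 0.74, and 0.85 with the block). Rgs7 was at 30.3, 23.6, 30.9 and 22.6 CPM in TRAP and 16.2, 21.2, 17.2 and 22.6 CPM in INPUT (log2 fold change 0.48), where the adjusted p was 0.042 unblocked and 0.17 with the block. Its call changed with the setting, as it passed with array weights and the block (0.018) and was lost without the block under quantile scaling (0.070), median scaling (0.051) and without VP1.6 or VP2.6 (0.23 each). Rgs6 passed without the block and not with it (log2 fold change 0.74, adjusted p = 0.0499 and 0.12), and was lower in TRAP in VP2.11. The log2 level of Rgs9 minus that of Rgs7 was 1.92 ± 0.43 in TRAP and 2.46 ± 0.38 in INPUT, a difference of -0.54 (exact permutation p = 0.14, and 0.21 adjusted over the 3 ratios). Rgs7bp, which anchors these proteins at the membrane, was at 226 ± 39.6 CPM in TRAP and 253 ± 47.9 CPM in INPUT (log2 fold change -0.16).

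The remaining RGS genes did not pass in either fit. Their log2 fold changes were -0.26 for Rgs5, a pericyte-rich gene, -0.14 for Rgs12, 0.22 for Rgs14, 0.34 for Rgs16 and 0.45 for Rgs3. Rgs11 (0.00) and Rgs13 (0.01) were low, with means of 3.99 and 1.32 CPM in TRAP.

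The 3 striatal-rich genes thus did not move together. Gng7 fell, while Gnal and Rgs9 did not pass the test, and 1 of 3 being lower (33.3%) compares with 14 of the other 43 genes (32.6%) and 24.8% of all genes. In ratios chosen after the values were seen, the log2 level of Gng7 minus that of Gnal was between -2.30 and -1.79 in TRAP and between 0.00 and 2.40 in INPUT, and that of Gng7 minus Rgs9 was between -1.35 and 0.01 in TRAP and between 1.99 and 3.37 in INPUT. Against other gamma genes, Gng7 minus Gng2 was between -1.71 and -1.07 in TRAP and between 0.80 and 2.85 in INPUT, and Gng7 minus Gng4 was between 0.57 and 1.10 in TRAP and between 2.68 and 4.36 in INPUT. The log2 fold change of Gng7 (-3.15) was below that of each of the 10 markers of striatal medium spiny neurons (-2.07 to -0.48). No test of that difference was made. Coding lengths differ, with 207 bases for Gng7, 1344 for Gnal and 2025 for Rgs9. With the coding length trend removed and the pool as a block, Gng7 was at -1.89, Gnal at -0.13 and Rgs9 at -0.34. Values of the markers with that trend removed are not given here.

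Of the 38 listed partners of G proteins that are not subunits, 32 were tested and the other 6 were not analysed here. Without the block 10 were higher and 4 lower (12.5%), where 23.2% of all genes were higher and 24.8% lower. With it 8 were higher and 3 lower (9.38%), where 15.4% of all genes were higher and 16.8% lower, and the median log2 fold change was 0.34. Among 18 effectors, 6 were higher and 1 lower (5 and 1 with the block). Among 8 exchange factors and binding proteins 3 were higher and 3 lower (3 and 2 with the block). Among 6 receptor kinases and arrestins 1 was higher (0 with the block). With the coding length trend removed and the block, 6 of the 32 partners were higher and 5 lower.

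The partners with the largest rises were phospholipases and a channel. Plcb4, a phospholipase C beta driven by Gq, was at 223 ± 8.25 CPM in TRAP and 62.2 ± 19.7 CPM in INPUT and rose 3.77-fold (adjusted p = 2.0e-04, and 8.5e-05 with the block). Plcb1, of the same family, was at 487 ± 30.0 CPM in TRAP and 164 ± 45.3 CPM in INPUT and rose 3.08-fold (adjusted p = 2.6e-04, and 2.4e-04 with the block). Kcnj9, which encodes a subunit of the potassium channel opened by beta-gamma, rose 2.54-fold (18.6 ± 1.19 against 7.50 ± 2.04 CPM). The largest falls among partners lower in 4 of 4 pools were those of Gpsm1, which encodes a protein that binds GDP-loaded Gi alpha subunits (2.96-fold lower, 14.5 ± 7.58 against 38.7 ± 5.38 CPM), and Adcy5, the main adenylyl cyclase of the striatum, on which Golf acts (2.06-fold lower, 72.8 ± 18.1 against 148 ± 22.7 CPM). Gpsm2, a relative of Gpsm1 lower in 3 of 4 pools and named after its values were seen, fell 2.30-fold (adjusted p = 0.031, and 0.047 with the block).

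In all, 28 of the 46 genes passed in neither fit, against 7402 of all 14249 genes tested. Of the 46, 12 fell in both fits (26.1%), where 16.7% of all genes were lower in both. Of these 12, 7 were gamma, 2 alpha, 3 RGS and 0 beta genes. In the blocked fit the lower share was 63.6% for gamma genes, below the 72.3% of other genes with up to 300 coding bases. It was 16.7% for alpha and for RGS genes and 0% for beta genes, against 16.8% of all genes. Only 1 of the 46 rose in both fits, where 15.4% of all genes were higher in both. Of the 46 genes, 14 had fractions that did not overlap, a smaller share than the 47.7% of all genes tested. Of the 13 calls in both fits, those of Gng7, Gng11, Gng5, Gng10, Gng12, Gna12 and Rgs10 also stood in both fits without any 1 of the 4 pools. Among these, the calls of Gng12 and Rgs10 were lost once the coding length trend was removed, and Gng10 shares 72.0% of its exon bases with another gene.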

How the data were processed

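Members and lists were chosen with earlier results of these data known. Per the labels, TRAP and INPUT libraries share a pool, and the methods take both from the same homogenate, so pools pair the libraries. Within a pool, deviations from the fraction means were opposed across genes (r from -0.745 to -0.495, against 0.0457 to 0.441 between pools).

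The authors aligned reads with STAR 2.5.1a (named in the submitters' processing notes) to GRCm38, counted uniquely aligned, unambiguous reads per gene, scaled libraries by TMM in edgeR and fitted limma with voom and quality weights. They deposited log2 CPM per library, with INPUT VP1.6 and both VP2.11 columns rounded to 3 significant digits, which can shift values slightly. The shift is largest at high levels. Gnb1 reads 11.8 log2 CPM in INPUT VP1.6, 11.4 in TRAP VP2.11 and 12 in INPUT VP2.11, so its CPM there are coarse. The authors also deposited their own comparison (log2 fold changes with limits, p-values, and score columns with a signed linear fold change) and a transcript count per gene, none of which was used.

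After 45 repeats of 14398 entries were left out, 14249 genes over 1 CPM in at least 3 libraries, all 46 members among them, were tested with limma 3.58.1 (trend, R 4.3.3) on the deposited values, with fraction as the factor and all-gene Benjamini-Hochberg adjustment (threshold 0.05). "Rose" and "fell" mean a call in that fit and in a further one that adds pools as a block. Both were tested on simulated data (14249 genes, 200 of them changed). With errors opposed within pools, calls fell on 125 changed and 66 unchanged genes if unblocked, against 44 and 1 if blocked. With independent errors they fell on 128 and 3, against 81 and 3. In the real data a far larger share of genes was called (47.9% unblocked, 32.2% blocked). The simulated counts therefore do not carry over to those data. Exon and coding lengths and sequences came from GENCODE M21. Whole-read steps in the difference within a pool (tolerance 2e-06 log2) held for 94.3% of 3424 low genes in VP2.2. They held for 98.4% of 3460 in VP2.6, and for under 2% in the other pools.

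Given in every library were Gnal, Gng7, Rgs9, Rgs4, their ratio partners, up to 4 members per class and direction with the largest change among those called in both fits and alike in 4 of 4 pools, and the highest member of each class in TRAP. Partners were named by the same criteria, up to 3 a direction. Alternatives were array weights, other filters, a pseudocount of 1, quantile and median scaling, a log2 fold change of at least 1, a trend on exon or (added after the values were seen) coding length, and leaving out each pool. Genome-wide read counts were not analysed here.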

Additional observations from a re-analysis of the deposited data

Results flagged for a closer look

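Gnal in the INPUT library of VP2.2 stood apart from the other INPUT libraries, at 7.62 log2 CPM against 8.44 to 8.55. It was marked because its gap to the nearest library was a large part of the range of the 4. In total 36 groups of 4 libraries were examined in this way, where 1.8 would be expected by chance. Across all genes, INPUT of VP2.2 had the lowest correlation with the mean of the other INPUT libraries (0.974, against 0.984 to 0.990). Rgs17 was also lowest there, at 92.9 against 185 to 221 CPM, but was not marked.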

How the results depend on the processing

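With the pool as a replicate block, 1 member was higher in place of 3, 12 were lower in place of 15, and 4592 of all genes were called in place of 6830. The block changed no other call named in the text than those given there. With array weights 7 members were higher and 7 partners lower. With a log2 fold change of at least 1, 3528 genes, 0 members higher, 9 members lower and 5 partners higher remained. Both length trends were removed together with the block, so their counts compare with those of the blocked fit. With the exon length trend removed 0 members were higher in place of 1, and 7 alpha members were lower in place of 2. With the coding length trend removed 3503 genes were called in place of 4592, 6 members were higher in place of 1, 9 lower in place of 12, 6 partners higher in place of 8, and 4 gamma members lower in place of 7. Leaving out each pool gave 4862 to 6894 genes, 0 to 4 members higher, 11 to 17 lower, and 7 to 13 partners higher and 2 to 5 lower. With the block as well it gave 3232 to 4156 genes, 1 to 3 members higher, 8 to 12 lower, and 5 to 9 partners higher and 2 to 4 lower. The sign turned for Gnal on leaving out pools (-0.45 to 0.095, above zero without VP2.11), Rgs9 likewise (-0.21 to 0.098, above zero without VP1.6), Gng3 with the coding length trend removed (0.65), Gnaq with quantile scaling (-0.038), the exon length trend removed (-0.14) and on leaving out pools (-0.033 to 0.30, below zero without VP1.6 or VP2.2), and Gnal minus Gnas on leaving out pools (-0.081 to 0.68, below zero without VP2.2). The cause was not tested. The remaining ratios kept their sign, between -2.81 and -2.31 for Gng7 minus Gng3 and between -0.84 and -0.24 for Rgs9 minus Rgs7, but 3 against 3 libraries cannot give a p under 0.1. Depth limits Gng10, Gngt2, Gng8, Gng13, Gnb3, Gna14, Rgs11 and Rgs13, whose levels were below 10 CPM. It also limits Gng11, Gng5 and Gnas, which were below 10 CPM in every TRAP library, so the size of the falls of Gng11 and Gng5 rests on few TRAP reads.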
